A study of Mus musculus with 6 samples.

Results

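Patrolling monocytes, the Ly6C-low monocytes that crawl along the inner wall of blood vessels, were described here among liver non-parenchymal cells (LNPCs) of mice with nonalcoholic steatohepatitis. A cell was counted as a patrolling monocyte when it held at least 2 unique molecular identifiers (UMIs) over Cd300e, Ace and Treml4, at least 1 UMI of Csf1r, at most 1 over Chil3 and F13a1, at most 5 over C1qa, C1qb and C1qc, and at most 1 over Kdr and Ptprb. In this way 405 of 27544 cells with under 5000 detected genes and under 5% mitochondrial UMIs were found. The members were thus chosen by the measured UMIs of these 11 genes, which are given below as a description and without a test.

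Male C57BL/6J mice, 8 weeks old at the start, were fed a high-fat diet for 24 weeks. During the last 8 weeks they received either vehicle (DMSO) or ginkgetin, a plant biflavonoid, at 10 mg/kg per day by the intragastric route. LNPCs were isolated from the liver and sequenced on the 10x Genomics Chromium system, with 3 libraries per group, and all 6 libraries thus share the diet and the sex. Neither the study nor the labels say outright that each library came from a separate animal, so the p-values below measure the spread between these samples only, which may be technical.

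Patrolling monocytes arise from classical, Ly6C-high monocytes in the bone marrow and the blood, and the orphan nuclear receptor Nr4a1 is needed for their survival. They hold onto the endothelium through the integrin LFA-1 (Itgal with Itgb2) and survey it, clear damaged endothelial cells, and carry the Fc receptor Fcgr4. In the liver they lie inside the sinusoids, where they can be confused with classical monocytes, with Kupffer cells and with dendritic cells that share part of their genes.

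Vehicle replicates 1, 2 and 3 held 117, 75 and 101 patrolling monocytes, and the ginkgetin libraries, in the same order, held 20, 27 and 65. Their median depth was 5147, 4994 and 7619 UMIs per cell with vehicle, against 2538.5, 2851 and 6933 with ginkgetin. The whole libraries held 13128697 to 61796882 UMIs. The summed UMIs over the members of a library, on which the gene tests rest, ran from 419599 to 884228 with vehicle and from 84458 to 573920 with ginkgetin. Replicate 3 of both groups was deeper than the others and was written with another set of cell barcodes and other symbols for part of the genes, so 16150 of 19349 genes could be compared over all 6 libraries. The libraries shared 266 cell barcodes pairwise, none of them patrolling monocytes in both libraries.

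Treml4 had a UMI in 79.3% of the patrolling monocytes, Ace in 75.8% and Cd300e in 39.3%, and 24.7% held all 3. The share of members with Cd300e, an activating immunoglobulin-like receptor, was 33.3%, 24% and 37.6% in the vehicle libraries and 50%, 48.1% and 63.1% in the ginkgetin libraries. After every cell was thinned to 1000 UMIs the same shares were 18.8%, 13.3% and 14.9% against 20%, 14.8% and 18.5%, and the groups overlapped. In T cells, which should lack the gene, at most 0.57% of the cells of any library had a Cd300e UMI before thinning. Ace, the angiotensin-converting enzyme, reached 210.3, 262 and 345 CPM (UMIs scaled to the same total in every library) in the summed vehicle members and 304, 899.9 and 584 CPM in the ginkgetin members.

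Eno3 and Adgre4, markers of patrolling monocytes that took no part in the rule, were used to check the name. Eno3, the muscle-type enolase, had a UMI in 46.9% of members and in 4.32% of the 718 cells of a classical monocyte gate (at least 2 UMIs over Chil3 and F13a1). By library the share of members with Eno3 was 45.3%, 41.3% and 57.4% with vehicle and 10%, 37.0% and 55.4% with ginkgetin. In ginkgetin replicate 1 it rested on 3 UMIs over 20 members, so the check by Eno3 is weak there, while 70% of these members held Adgre4. Adgre4, an adhesion G protein-coupled receptor, had one in 67.2% of members and 26.7% of classical monocytes, and 78.3% of members held one of both genes. The highest share in the T cells of a library was 5.71% for Eno3 and 1.0% for Adgre4. Adgre4 did not set members apart from C1q-rich cells, since 63.3% of the 1355 cells with over 10 C1q UMIs that met the rest of the rule held it, against 10.3% for Eno3. In the Kupffer cell gate Adgre4 was 41.1 to 105 CPM with vehicle and 357 to 424 CPM with ginkgetin, and Eno3 was at most 11.8 CPM in any library. Both genes became rarer near the threshold. Of the 141 cells just outside it, with 1 UMI of the 3 rule genes, 14.9% held Eno3 and 39.0% Adgre4. Of the 100 members with exactly 2 UMIs, the shares were 31.0% and 47.0%, and of the 158 members with 5 or more they were 65.2% and 86.7%.

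A second kind of cell lay within the rule. Of the 405 members, 57 (14.1%) had at least 1 UMI of the dendritic cell markers Flt3, Zbtb46, Xcr1, Clec9a, Cd209a or Siglech, and 41 of these had Xcr1 or Clec9a, which mark cross-presenting dendritic cells. Among the 41 cells, 31 (75.6%) had entered through Treml4 alone, and their median depth was 17846 UMIs. Members with a dendritic-marker UMI made up 17.9%, 8.0% and 11.9% of the vehicle members and 25%, 7.41% and 16.9% of the ginkgetin members, so the groups overlapped.

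Because they were deep, the 57 cells carried 31.0% of all UMIs of the patrolling monocytes, from 11.0% in ginkgetin replicate 2 to 59.4% in ginkgetin replicate 1. In their sum Adgre4 stood at 31.8 CPM, the sialoglycoprotein gene Spn (CD43) at 34.1 CPM and the fractalkine receptor gene Cx3cr1 at 28.4 CPM. In the other 348 members the same genes stood at 337, 229 and 332 CPM. The MHC class II gene H2-Aa was 7757 CPM in the 57 cells and 2318 CPM in the 348. The results below are therefore given for all 405 members, as the rule has them, and again without the 57 cells for named genes where that changes a call.

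**Figure D1:**
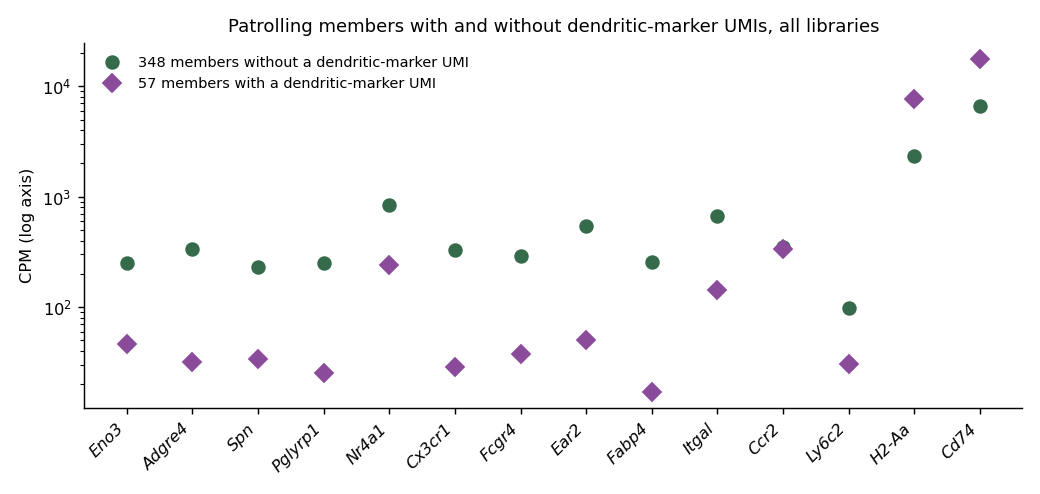
CPM (log axis) of 14 genes, summed over all libraries, in the 348 patrolling monocytes without a dendritic-marker UMI (circles) and the 57 with one (diamonds). Eno3, Adgre4, Spn, Cx3cr1 and the other patrolling genes are lower in the 57 cells, Ccr2 is at a like level in both, and H2-Aa and Cd74 are higher in the 57.

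Against the classical monocytes of the same library, the patrolling monocytes showed the known contrast in all 6 libraries. Ly6c2, whose protein is the Ly6C antigen itself, was 60.6, 112 and 66.7 CPM in the vehicle patrolling sums and 722, 594 and 813 CPM in the classical sums. Ccr2, the receptor through which classical monocytes leave the marrow, was lower in the patrolling than in the classical sum of every library. Fabp4, a fatty acid-binding protein, stood first of the 10 genes most raised over classical monocytes, ranked by the library with the smallest ratio among the 1357 genes at 50 CPM or more in every patrolling sum, and its smallest log2 ratio was 2.31. It was followed by Pglyrp1, a peptidoglycan recognition protein (2.28), Spn (1.96), Adgre4 (1.80), Wdfy4 (1.64), the scavenger receptor Cd36 (1.63), the iron regulator Hfe (1.63), the ribonuclease Ear2 (1.62), Xcr1 (1.42) and the Notch target Hes1 (1.35). The classical sum was at or under 3 UMIs, so that this floor set the ratio, in 5 libraries for Xcr1, in 2 for Fabp4 and Hfe, and in 1 for Wdfy4, Cd36 and Ear2, and the order of the 10 depends on it. Xcr1 and Wdfy4 belong to cross-presenting dendritic cells, and Xcr1 is one of the dendritic markers that set the 57 cells apart.

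Nr4a1 was higher in the patrolling sum of 6 of 6 libraries, by a log2 ratio of 0.22 to 1.30, and Pou2f2 by 0.42 to 1.52. The integrin genes Itgal (0.53 to 2.38) and Itgb2 (0.24 to 0.78) and the egress receptor S1pr5 (1.42 to 5.27, with the classical sum at or under 3 UMIs in 4 libraries) were also higher in 6 of 6. Cebpb, Klf2, Apoe and Nfkbia were higher in 2 or 3 of 6 libraries, Il1b in 4 of 6, and Cx3cr1 and Tnf in 5 of 6. Trem2, a lipid receptor of scar- and lipid-associated macrophages, was lower in the patrolling than the classical sum in 6 of 6 libraries. These ratios compare cells that the rules set apart by their RNA, and were not tested.

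**Figure D2:**
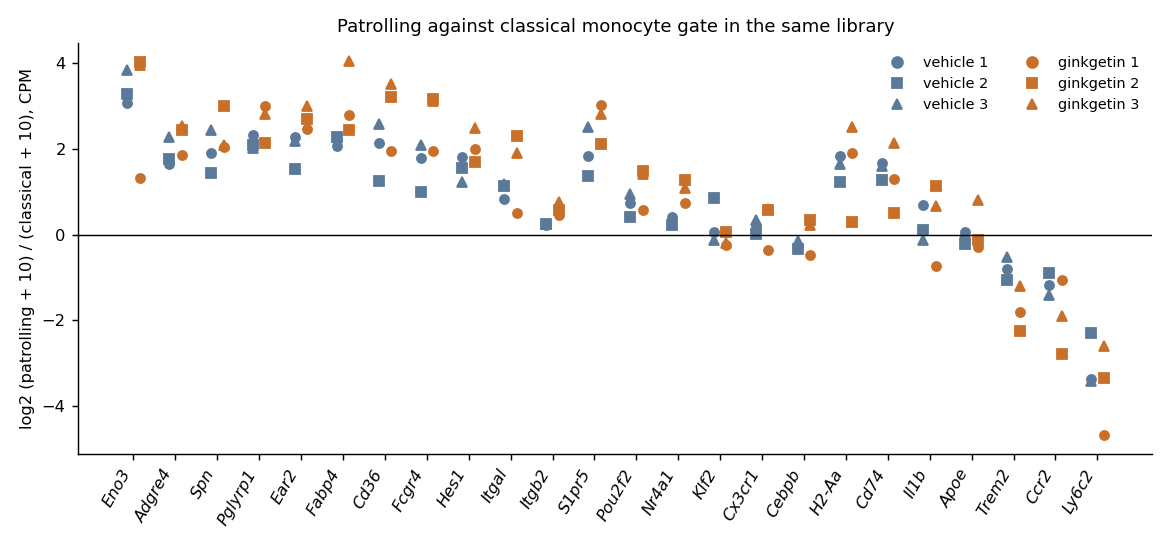
Log2 ratio of patrolling to classical monocyte sums of the same library, after 10 CPM was added to each, for 24 genes; blue is vehicle, orange ginkgetin, and the shape gives the replicate number. Points above 0 are higher in patrolling monocytes: the genes from Eno3 to Nr4a1 lie above 0 in 6 of 6 libraries, Klf2, Cx3cr1 and Cebpb scatter around it, and Trem2, Ccr2 and Ly6c2 lie below.

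The first question was whether ginkgetin moved the number of these cells. Patrolling monocytes made up 1.94%, 2.25% and 2.44% of the kept cells of the vehicle libraries and 0.57%, 0.39% and 1.78% of those of the ginkgetin libraries, with no overlap. The means were 2.21% ± 0.25 and 0.92% ± 0.76 (SD, n = 3 each), and the difference of −1.30 percentage points had p = 0.10 in a two-sided exact permutation test, the smallest value that 3 against 3 libraries allow (0.10 after Benjamini-Hochberg adjustment over the 2 share tests). With a gate of 3 UMIs in place of 2 the groups overlapped (difference −0.88 points, exact permutation p = 0.30). The difference was −1.61 points within replicates 1 and 2 and −0.66 within replicate 3. It depended on depth: when each cell was thinned to 1000 UMIs before the rule was applied, 16, 7 and 30 vehicle cells and 5, 15 and 28 ginkgetin cells met it, and the mean shares were 0.40% and 0.38% (two-sided exact permutation p = 0.90). Thinning left out 23 cells under that depth from the vehicle and 112 from the ginkgetin libraries, all in replicate 3. Fewer such cells in the liver, more of the other kept cells and less RNA per cell cannot be told apart by these shares.

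Set against classical monocytes instead of all cells, the patrolling monocytes went the other way. They were 30.4%, 36.6% and 31.4% of the cells in both monocyte gates with vehicle and 39.2%, 52.9% and 59.6% with ginkgetin, again with no overlap. The means were 32.8% ± 3.33 and 50.6% ± 10.4 (SD, n = 3 each, p = 0.10 in the two-sided exact permutation test, adjusted 0.10). Only 31, 24 and 44 classical monocytes were left in the ginkgetin libraries, against 268, 130 and 221 with vehicle. The 95% exact binomial intervals, which cover counting error alone, ran from 25.8% to 53.9% for ginkgetin replicate 1 and from 25.8% to 35.3% for vehicle replicate 1. Without the dendritic-marker cells the groups overlapped (27.5%, 35.9% and 31.4% against 34.1%, 53.2% and 64.3%, exact permutation p = 0.20). After thinning the shares were 34%, 36.8% and 33.7% against 55.6%, 83.3% and 84.8%, the last 3 with 4, 3 and 5 classical monocytes. Without the upper limit on C1q UMIs, which lets in 1355 cells with more than 10 of them, the means were 65.2% and 64.8%.

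**Figure D3:**
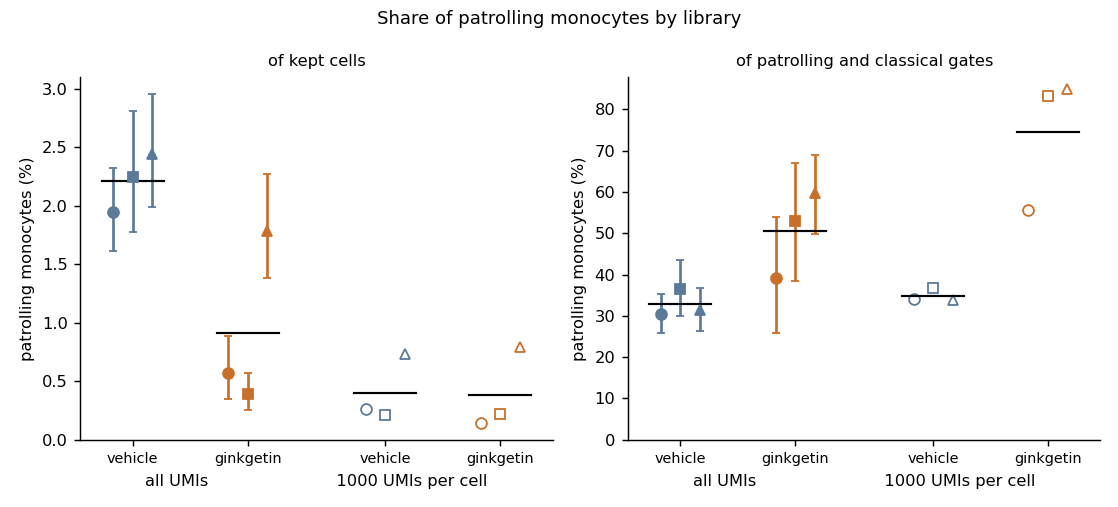
Patrolling monocytes as a percentage of kept cells (left) and of the patrolling and classical gates together (right), per library; filled symbols use all UMIs with 95% exact binomial intervals, open symbols cells thinned to 1000 UMIs, circles, squares and triangles are replicates 1, 2 and 3, and black lines are group means. With all UMIs the groups do not overlap in either panel, while after thinning they overlap on the left (means 0.40% and 0.38%) and stay apart on the right.

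The second question was which genes of the patrolling monocytes differed between the groups, tested on UMIs summed per library over the members. In edgeR's quasi-likelihood test with group as the only term, 1 of 5105 genes (0.0196%) passed an adjusted p under 0.05 with a fold over 2, and 697 genes had an unadjusted p under 0.05. With the replicate number as a block, 75 genes (1.47%) passed, 25 of them higher with ginkgetin (0.490%) and 50 lower (0.979%). Neither the labels nor the study pair the replicate numbers between the groups. The block rests on these data, in which libraries with the same number deviated together from their group means. The blocked calls are therefore given beside the others throughout. Without the 57 dendritic-marker cells 9 of 3907 genes passed with group alone and 144 (3.69%) with the block, and 62 of these 144 were among the 75.

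Slpi, the secretory leukocyte peptidase inhibitor that restrains neutrophil elastase and NF-κB signaling, was the 1 gene called with group alone. It stood at 67.1, 95.3 and 74.6 CPM in the vehicle libraries and at 0, 0 and 5.23 CPM (3 UMIs) in the ginkgetin libraries. It fell by 4.43 ± 0.61 (SE) on the log2 scale in edgeR (adjusted p = 0.035, and 0.0046 with the block), was lower in 3 of 3 ginkgetin libraries, and was also called without the dendritic-marker cells (adjusted p = 0.017). Leaving out any library other than vehicle replicate 1 ended the call, with edgeR adjusted p-values of 0.12 without vehicle replicate 2, 0.054 without vehicle replicate 3, and 0.16, 0.17 and 0.26 without ginkgetin replicates 1, 2 and 3. In T cells Slpi ranged from 1.56 to 19.9 CPM over the 6 libraries, and in the classical monocyte sums it was 270 to 368 CPM with vehicle and 139 to 157 CPM with ginkgetin. Ly6c2, the classical marker, had a UMI in 20.5%, 30.7% and 23.8% of vehicle members and 10%, 7.41% and 4.62% of ginkgetin members, and the part of classical monocytes in the Slpi result was not tested.

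The next 4 genes with lower values did not pass with group alone and passed with the block. Clec4n (dectin-2), a receptor for fungal mannans, was 74.8, 59.6 and 59.9 CPM with vehicle and 10.1, 11.8 and 1.74 CPM with ginkgetin, the latter 1 UMI in each library (log2 fold change −4.01, adjusted p = 0.057, and 0.013 with the block, edgeR). Its classical sums were 111, 89.3 and 85.1 CPM against 48.4, 17.7 and 2.10 CPM, and its Kupffer sums 120 to 204 CPM against 208 to 258 CPM. Trem2 was 72.3, 88.2 and 139 CPM against 10.1, 23.7 and 19.2 CPM (−2.57, edgeR adjusted p = 0.057, and 0.0091 with the block). Neither gene overlapped between the groups. Trem2 RNA was also present in T cells of the same libraries, at 11.0 to 12.3 CPM with vehicle and 0.444 to 0.685 CPM with ginkgetin, and its part in the difference was not tested.

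Cstb and Acp5 completed the 5. Cstb, the cysteine protease inhibitor cystatin B, was 252, 496 and 274 CPM with vehicle and 70.9, 82.9 and 50.5 CPM with ginkgetin (−2.52, edgeR adjusted p = 0.057, and 0.0024 with the block). Acp5, the tartrate-resistant acid phosphatase, was 130.3, 140.6 and 184 CPM against 50.7, 47.4 and 50.5 CPM (−1.70, edgeR adjusted p = 0.11, and 0.020 with the block). In T cells Acp5 stood at 93.0 to 136 CPM with vehicle and 73.2 to 97.8 CPM with ginkgetin, and Cstb overlapped too (48.1 to 103 CPM against 45.6 to 57.0 CPM). Both genes were lower without overlap in the other myeloid gates. Acp5 was 88.4 to 112 CPM against 10.5 to 26.6 CPM in the classical sums and 573 to 799 CPM against 280 to 345 CPM in the Kupffer sums. Cstb was 475 to 816 CPM against 133 to 272 CPM and 688 to 1102 CPM against 221 to 336 CPM, in the same order.

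No gene was called higher with group alone. The 5 with the lowest unadjusted p among those whose groups did not overlap all passed with the block. Ehd3, an endocytic protein of sinusoidal endothelium, was 0, 2.38 and 1.13 CPM with vehicle and 40.5, 153.9 and 36.6 CPM with ginkgetin (log2 fold change 5.61, edgeR adjusted p = 0.057, and 0.0023 with the block), while in T cells it stood at 43.3 to 52.9 CPM and 54.4 to 175 CPM. The part of endothelial RNA in the Ehd3 result was not tested. Scnn1a, a subunit of the epithelial sodium channel, was 5.16, 4.77 and 15.8 CPM against 50.7, 94.7 and 68.0 CPM (2.79, edgeR adjusted p = 0.057, and 0.022 with the block). T cells held no more than 1.0 CPM of Scnn1a in any library, and the classical sums held up to 3.34 CPM with vehicle and 0, 17.7 and 10.5 CPM with ginkgetin.

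The adhesion molecule gene L1cam was 14.2, 9.53 and 17 CPM with vehicle and 30.4, 82.9 and 71.4 CPM with ginkgetin (log2 fold change 2.06, edgeR adjusted p = 0.11, and 0.039 with the block). Rap1gap2, which turns off the small GTPase Rap1 that activates integrins, was 31.0, 28.6 and 46.4 CPM against 131.7, 71.0 and 141 CPM (1.67, edgeR adjusted p = 0.13, and 0.030 with the block), with 5.14 to 8.52 CPM in T cells. Gpr171, a G protein-coupled receptor, was 12.9, 9.53 and 15.8 CPM against 70.9, 23.7 and 78.4 CPM (2.18, edgeR adjusted p = 0.11, and 0.030 with the block), with 27.4 to 74.8 CPM in T cells. Without the dendritic-marker cells Gpr171 was 6.19, 0 and 0 CPM against 0, 26.6 and 2.66 CPM. Most of it thus came from those cells, except in ginkgetin replicate 2, where it rested on 2 UMIs. All 10 genes kept their direction within replicate 3, where each has 1 library per group, and in every alternative in which they were tested. They were picked among genes whose groups do not overlap. That choice fixes the direction within replicate 3, and largely when a library is left out, so it adds no support.

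**Figure D4:**
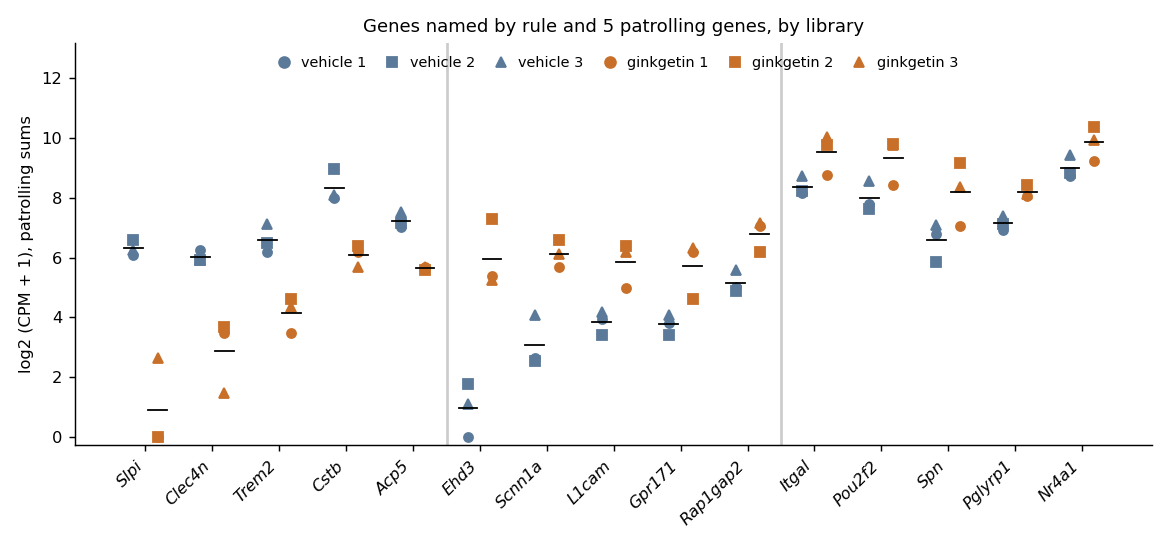
Log2 (CPM + 1) of 15 genes in the summed patrolling monocytes of each library; blue is vehicle, orange ginkgetin, the shape gives the replicate number and black lines are means of the log values. The 5 genes on the left are lower and the 5 in the middle higher in 3 of 3 ginkgetin libraries without overlap, while of the 5 patrolling genes on the right only Itgal and Pglyrp1 do not overlap.

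The gene lists below are read against all 5105 genes tested, of which 2604 lay above 0 and 2501 below. Their median log2 fold change was 0.016, 414 genes (8.11%) were higher without overlap between the groups, and 508 (9.95%) were lower without overlap. Of 17 tested genes of adhesion, crawling and egress, 15 lay above 0 and the median was 0.40. Of them 2 were higher without overlap, none was called with group alone and Itgal was called with the block. Itgal was 285, 300.3 and 426 CPM with vehicle and 436, 876 and 1051 CPM with ginkgetin (log2 fold change 1.15 ± 0.33, edgeR adjusted p = 0.20, and 0.033 with the block). Its partner Itgb2 overlapped between the groups (0.53 ± 0.35, edgeR adjusted p = 0.52).

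Spn and S1pr5, of the same list, did not pass. Spn was 108, 57.2 and 135 CPM with vehicle and 132, 568 and 329 CPM with ginkgetin, where vehicle replicate 3 exceeded ginkgetin replicate 1 (1.67 ± 0.43, edgeR adjusted p = 0.18, and 0.064 with the block). S1pr5 was 34.8, 21.4 and 55.4 CPM against 70.9, 71.0 and 134 CPM (1.31 ± 0.38, edgeR adjusted p = 0.20, and 0.079 with the block). Without the dendritic-marker cells, Itgal, Spn and S1pr5 were all called with the block (edgeR adjusted p = 0.0037, 0.0041 and 0.022). T cells also express Itgal and Spn, with Itgal at 157 to 224 CPM with vehicle and 213 to 473 CPM with ginkgetin. Spn was higher without overlap in T cells (93.5 to 115 CPM against 125 to 202 CPM) and in the classical sums (14.7 to 21.8 CPM against 24.2 to 69.5 CPM). Itgal overlapped in the classical sums, at 131 to 184 CPM against 168 to 303 CPM.

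Of 24 tested transcription factors, 17 lay above 0 (median 0.20), and the block called 1 higher, Pou2f2, and 1 lower. Pou2f2 (Oct2) was 223, 195 and 381 CPM with vehicle and 344, 888 and 882 CPM with ginkgetin (1.33 ± 0.37, edgeR adjusted p = 0.19, and 0.033 with the block). Higher Pou2f2 was not confined to these cells. It was 129 to 193 CPM against 230 to 322 CPM in the classical sums and 110 to 235 CPM against 316 to 421 CPM in the Kupffer sums. In T cells it overlapped, at 33.9 to 56.9 CPM against 28.6 to 56.0 CPM. Nr4a1 was 419, 453 and 696 CPM against 608, 1326 and 984 CPM, with ginkgetin replicate 1 below vehicle replicate 3 (0.84 ± 0.34, edgeR adjusted p = 0.32, and 0.14 with the block). Klf2 and Cebpb overlapped as well (0.43 ± 0.32 and −0.29 ± 0.33, edgeR adjusted p = 0.56 and 0.72).

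Of 16 tested identity genes 10 lay above 0 (median 0.19, which turned sign in 2 of 24 alternatives), 2 were higher and 1 lower without overlap, the lower being the lectin gene Clec4a3, and the phosphatase gene Dusp16 was the 1 called with the block (55.5, 42.9 and 86.0 CPM against 132, 82.9 and 228 CPM). Pglyrp1 did not overlap, at 121, 138 and 165 CPM with vehicle and 263, 343 and 280.5 CPM with ginkgetin (1.0 ± 0.29, edgeR adjusted p = 0.20, and 0.069 with the block). Without the dendritic-marker cells 5 identity genes were called with the block, namely Pglyrp1, Spn, Dusp16, Cd300ld and the ion cotransporter Slc12a2, all with higher values. Eno3, Adgre4, Fcgr4, Ear2 and Hes1 overlapped between the groups, with log2 fold changes from −0.48 for Eno3 to 0.61 for Adgre4 and edgeR adjusted p-values from 0.40 to 0.94. Ly6c2 (−0.29 ± 0.43) and Ccr2 (−0.32 ± 0.37) overlapped too.

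Of 16 tested chemokines and chemokine receptors, 10 lay below 0 (median −0.61, which turned sign in 2 of 24 alternatives), 4 were lower without overlap, and 4 were called lower with the block: Cxcl2, Ccl3, Ccl9 and Ccrl2. The neutrophil attractant Cxcl2 was 47.7, 169 and 597 CPM with vehicle and 0, 35.5 and 31.4 CPM with ginkgetin (−3.48 ± 0.85, edgeR adjusted p = 0.16, and 0.0013 with the block). Ccl3 was 201, 346 and 335 CPM against 152, 107 and 61.0 CPM (−1.62 ± 0.44, edgeR adjusted p = 0.19, and 0.040 with the block). Ccl4 was called lower too once the dendritic-marker cells were left out (edgeR adjusted p = 0.0037 with the block). In T cells Cxcl2 and Ccl3 had lower values with ginkgetin too, Cxcl2 at 10.6 to 28.6 CPM against 1.11 to 3.42 CPM.

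The fractalkine receptor Cx3cr1, the receptor most tied to these cells, was 191, 229 and 229.6 CPM with vehicle and 111, 509 and 301 CPM with ginkgetin, so the groups overlapped (0.40 ± 0.40, edgeR adjusted p = 0.66). Among inflammatory genes, Tnf, Il1b and the NF-κB inhibitor gene Nfkbia also overlapped (−0.19 ± 0.69, −0.36 ± 0.38 and −0.39 ± 0.32, edgeR adjusted p = 0.94, 0.69 and 0.60). Of 15 tested genes of that list (median −0.27), the interleukin-1 receptor antagonist Il1rn was the 1 called with the block, at 52.9, 188 and 152 CPM against 0, 23.7 and 66.2 CPM. Of 15 Fc and activating receptors 12 lay below 0 (median −0.40) and Clec4n and Trem2 were called with the block. Of 9 pattern-sensing genes (median −0.14), the endotoxin co-receptor Cd14 was called, at 76.1, 73.9 and 158 CPM against 0, 35.5 and 27.9 CPM.

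Of 19 lipid-handling genes 14 lay below 0 (median −0.34), and the block called 1 higher and 4 lower, the latter being Fabp5, Lpl, Plin2 and Abcg1. Plin2, the coat protein of lipid droplets, was 212, 243 and 331 CPM with vehicle and 40.5, 47.4 and 178 CPM with ginkgetin (−1.43 ± 0.41, edgeR adjusted p = 0.20, and 0.032 with the block). The apolipoprotein gene Apoe did not overlap (3685, 3532 and 8136 CPM against 1540.0, 2261 and 3068 CPM) and was not called (−1.21 ± 0.42, edgeR adjusted p = 0.26, and 0.080 with the block), but was called lower with the block without the dendritic-marker cells (edgeR adjusted p = 0.020). Apoe is abundant in the liver, and in T cells it stood at 686 to 793 CPM with vehicle and 94.5 to 442 CPM with ginkgetin. Fabp4 and Cd36, which set these cells apart from classical monocytes, overlapped between the groups (−0.33 ± 0.32 and 1.01 ± 0.35, edgeR adjusted p = 0.66 and 0.27), though Cd36 was called higher with the block without the dendritic-marker cells (edgeR adjusted p = 0.0077).

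Of 19 lysosomal and phagocytic genes 16 lay below 0 (median −0.58), 8 were lower without overlap, and the proteases Ctsd, Ctsz and Lgmn were called with the block. Lgmn, legumain, was 275, 272 and 397 CPM with vehicle and 122, 71.0 and 149.8 CPM with ginkgetin (−1.45 ± 0.33, edgeR adjusted p = 0.14, and 0.021 with the block). Ctsc was called lower too once the dendritic-marker cells were left out (edgeR adjusted p = 0.022 with the block). In T cells Lgmn overlapped between the groups, at 18.0 to 36.1 CPM and 13 to 43.1 CPM.

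Of 14 glycolytic genes 11 lay below 0 (median −0.71), 8 were lower without overlap, and Aldoa and Tpi1 were called with the block. Aldoa, aldolase, was 418, 643 and 479.5 CPM with vehicle and 162, 225 and 275 CPM with ginkgetin (−1.28 ± 0.33, edgeR adjusted p = 0.18, and 0.033 with the block). Without the dendritic-marker cells the block also called Gapdh, Pgam1, Pkm and Ldha, all lower. The same direction was seen in T cells, where Aldoa stood at 385 to 391 CPM with vehicle and 204 to 241 CPM with ginkgetin, so lower Aldoa was not confined to the patrolling monocytes.

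Among 16 immediate-early and heat-shock genes (median −0.23) the block called Hspa1a and Hspa1b lower and Egr1 higher. Hspa1a, an inducible heat-shock protein that also responds to tissue dissociation, was 1389.8, 994 and 1235 CPM with vehicle and 355, 23.7 and 301 CPM with ginkgetin (−2.40 ± 0.58, edgeR adjusted p = 0.16, and 0.016 with the block). T cells showed it as well, at 372 to 766 CPM against 13 to 49.5 CPM. Egr1 was 19.4, 31.0 and 74.6 CPM against 81.1, 142 and 223 CPM (1.82 ± 0.45, edgeR adjusted p = 0.16, and 0.020 with the block), and its call ended without the dendritic-marker cells (edgeR adjusted p = 0.35 with the block). Without those cells Hspa8 and Atf3 were called lower with the block, and so were Ier3 among the inflammatory genes and Lgals3 and Spp1 among the lipid-associated macrophage markers, while Rara was called higher among the transcription factors.

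Antigen presentation and interferon genes gave no calls with group alone or with the block. Of the MHC class II genes (9 tested, median −0.26) 8 overlapped and the protease gene Ctss was lower without overlap, with H2-Aa at 5145, 3966 and 3237 CPM with vehicle and 4792, 935 and 3997 CPM with ginkgetin (−0.36 ± 0.55, edgeR adjusted p = 0.80). H2-Ab1 and Cd74 did likewise (−0.45 ± 0.60 and −0.18 ± 0.55, edgeR adjusted p = 0.76 and 0.91), and ginkgetin replicate 2 was the lowest library for all 3, also without the dendritic-marker cells (H2-Aa 479 CPM, against 1923 CPM or more in the others). Of 14 interferon-stimulated genes, 7 lay above and 7 below 0 (median 0.034), and of 13 MHC class I genes 6 lay above 0 (median −0.18). Genes of survival (13 tested, median −0.28) had no call either, whereas complement (8 tested, median −0.24), vascular repair (5 tested, median 0.33) and the cell cycle (9 tested, median −0.27) had 1 blocked call each, Cd55 higher, F10 lower and Stmn1 lower.

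**Figure D5:**
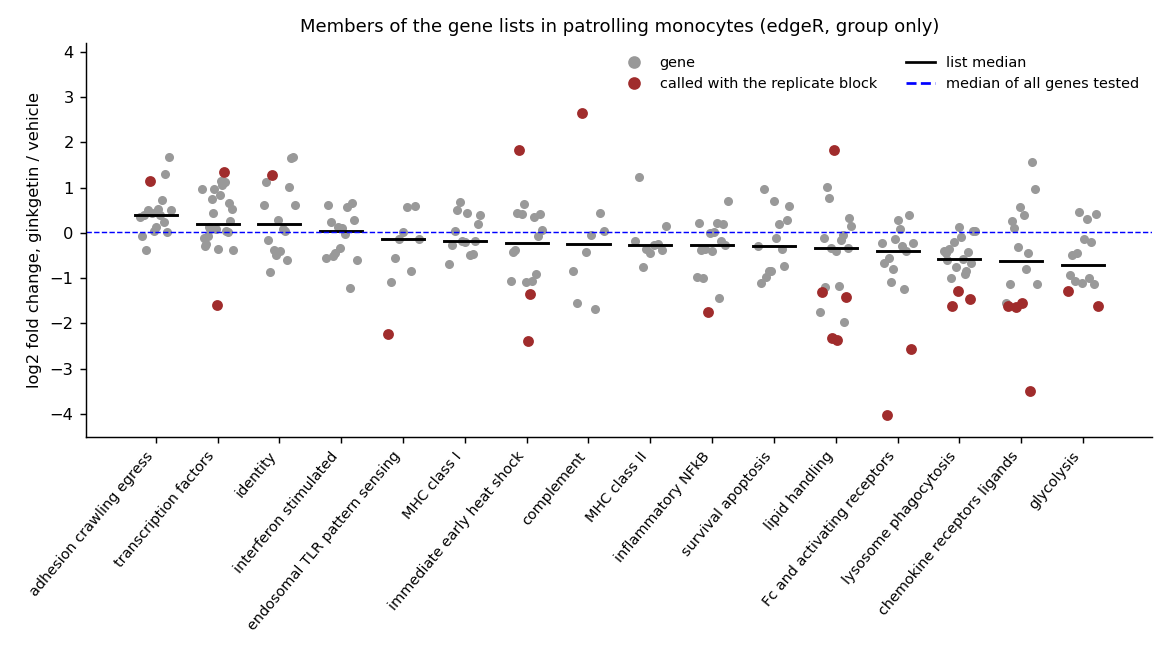
Log2 fold change of ginkgetin over vehicle for each tested gene of 16 gene lists in the patrolling monocytes, from the fit with group alone; black bars are list medians, the dashed line is the median of all 5105 genes (0.016), and red points are genes called with the replicate block. Of the 16 lists drawn, adhesion has the highest median (0.40) and glycolysis the lowest (−0.71). Genes picked after their values were seen are not drawn.

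The summed markers of macrophages were lower with ginkgetin in these sums, and in T cells of the same libraries too. Summed over 9 markers of lipid-associated macrophages (Trem2, Gpnmb, Cd9, Spp1, Fabp5, Cd63, Atp6v0d2, Gdf3 and Lgals3), the patrolling monocytes held 1853 to 2176 CPM with vehicle and 663 to 1065 CPM with ginkgetin, and 0 or 1 marker against 2 to 4 markers were at 0. Most of this was Lgals3 with vehicle, at 1186 to 1351 CPM, against 332 to 709 CPM with ginkgetin. In T cells the 9 markers gave 225 to 488 CPM against 103 to 210 CPM. The sums with the most markers at 0, of ginkgetin replicates 1 and 2, were also the shallowest (98701 and 84458 UMIs). Summed over 10 Kupffer cell markers the levels were 127 to 238 CPM against 27.9 to 82.9 CPM, with 2 or 3 against 3 to 5 markers at 0, and the rule itself limits 3 of them. In T cells the Kupffer cell markers gave 183 to 258 CPM with vehicle and 53.3 to 122 CPM with ginkgetin. The sums of the other marker lists overlapped between the groups. Counted per cell, however, 2 or more UMIs of T, B, endothelial, stellate or bile duct markers that monocytes lack were found in 14 of 117, 10 of 75 and 15 of 101 vehicle members and in 4 of 20, 13 of 27 and 28 of 65 ginkgetin members, a larger share in each ginkgetin library than in any vehicle library. Without these cells the shares differed by −1.35 points among kept cells and by 19.98 points among both monocyte gates, and edgeR with group alone called 2 genes, Slpi among them (adjusted p = 0.042). Endothelial markers (8) gave 226 to 310 CPM against 253 to 687 CPM, and hepatocyte markers (6) gave 90.3 to 455 CPM against 40.5 to 272 CPM. Among 8 T and NK cell markers the sum was at most 16.8 CPM with vehicle and 8.71 to 130.2 CPM with ginkgetin. B and plasma cell markers (6) gave 35.7 to 249 CPM against 60.8 to 620 CPM, and dendritic markers (6) gave 191 to 283 CPM against 107 to 547 CPM. Of the 75 genes called with the block, Trem2, Fabp5, Cd5l, Alb and Fabp1 (lower) and Ehd3 and Clec4g (higher) stand on these lists. The part of this RNA in the gene differences above was not tested.

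The third question was whether the ginkgetin effect in patrolling monocytes differed from that in classical monocytes of the same libraries. An interaction term in edgeR, with the library as a block, called 6 of 5984 genes (0.10%), and 405 had an unadjusted p under 0.05. Without the dendritic-marker cells the calls of Ccl5 and Egr1 ended (edgeR adjusted p = 0.15 and 0.13), and the other 4 remained. The 3 with the lowest p were the T and NK cell chemokine Ccl5, the chemokine Ccl9 and the tetraspanin Cd9, with Egr1 tied to Cd9 on the adjusted p. Ccl9 was 321, 372 and 213 CPM with vehicle and 81.1, 153.9 and 87.1 CPM with ginkgetin in patrolling monocytes, while in classical monocytes it was 868, 921 and 470.2 CPM against 678, 708 and 604 CPM. Its log2 fold change was 1.47 ± 0.24 (SE) lower in the patrolling than in the classical cells (interaction −1.47, edgeR adjusted p = 0.0083).

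Cd9 went the other way. In patrolling monocytes it was 271, 231 and 347 CPM with vehicle and 91.2, 189 and 296 CPM with ginkgetin, which overlapped, and in classical monocytes 104, 66.7 and 172 CPM against 24.2, 8.86 and 14.7 CPM (interaction 2.45 ± 0.44, edgeR adjusted p = 0.022). Ccl5 was 117, 181 and 69.0 CPM against 274, 130.2 and 74.9 CPM in patrolling monocytes and 55.5, 39.6 and 5.73 CPM against 478, 213 and 105 CPM in classical monocytes (interaction −2.63 ± 0.39, edgeR adjusted p = 0.0056). T cells held 4837 to 22709 CPM of Ccl5. The summed T and NK markers in the classical sums were 4.3 to 19.7 CPM with vehicle and 40 to 88.6 CPM with ginkgetin, and their part in the Ccl5 result was not tested.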

How the data were processed

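The deposited files hold UMI counts per gene and cell of 6 libraries, made by the authors from 10x Chromium reads. The builds GRCm38 and mm10 are given in the submitters' processing notes, and aligner and annotation are not given in the sources used here. The study's methods state a filter of 250 to 5000 UMIs and under 5% mitochondrial genes. Here the upper limit of 5000 was read as genes per cell, which kept 27544 of 33168 barcodes, and the UMI reading was an alternative.

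Members, gene lists and named genes were chosen with earlier results of these data known. Counts were summed per library over the cells of each gate and tested with edgeR 4.0.16 (TMM, filterByExpr, glmQLFit and glmQLFTest; R 4.3.3) over all genes, leaving out the 11 genes of the rule, 946 genes at 0 in both replicate 3 libraries and 2253 genes at 0 in the other libraries. A gene was called when its p, adjusted after Benjamini and Hochberg, was under 0.05 and its fold was over 2. CPM are the summed UMIs of a gene scaled to an equal total per library. Neither the labels nor the study say that the replicate numbers pair the samples. The correlations of same-numbered libraries, as deviations from the group means over genes, were 0.23, 0.14 and 0.47. Those of libraries with unlike numbers ran from −0.28 to 0.089, and all came from the genes that were tested. Named genes were those fixed for the cell type, the 5 largest called rises and falls whose groups do not overlap, at 50 CPM or more in the higher group (filled by the lowest unadjusted p), called list members, the 3 lowest adjusted interaction p-values and the 10 genes most raised over classical monocytes. Shares were compared by two-sided exact permutation tests. Doublets were not called. They were approached by leaving out members with 2 or more UMIs of T, B, endothelial, stellate or bile duct markers. The tests were checked on simulated data with known fold changes. DESeq2 1.42.0, limma 3.58.1, other normalizations, filters, gates, thinning to 1000 UMIs and leaving out each library were alternatives. Of the 385 list genes, 1 was absent from the tables, and a few are not reported here. Intervals cover counting error only.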

Additional observations from a re-analysis of the deposited data

Results flagged for a closer look

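The ginkgetin effect differed between patrolling and classical monocytes of the same libraries for 6 genes (edgeR interaction term). For Ccl5 the log2 fold change was −2.63 relative to classical monocytes, for Ccl9 −1.47 and for Slpi −3.10, which had lower values in both (67.1, 95.3 and 74.6 CPM against 0, 0 and 5.23 CPM in patrolling cells, 270.0, 357 and 368 CPM against 157, 151 and 139 CPM in classical cells). For Cd9 it was 2.45. Egr1, an immediate-early factor (2.58), was 19.4, 31.0 and 74.6 CPM against 81.1, 142 and 223 CPM in patrolling cells and 14, 21.5 and 48.3 CPM against 6.05, 53.1 and 14.7 CPM in classical cells. Lair1, an inhibitory collagen receptor (2.06), was 177, 167 and 175 CPM against 172, 213 and 192 CPM in patrolling cells and 111, 113 and 92.7 CPM against 72.6, 26.6 and 10.5 CPM in classical cells. Of the 6, 4 were still called without the dendritic-marker cells (not Ccl5 and Egr1), 3 without ginkgetin replicate 2 and 1, Ccl5, without ginkgetin replicate 3. The classical sums of the ginkgetin libraries rest on 24 to 44 cells.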

How the results depend on the processing

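The count of genes called in patrolling monocytes depended on the processing. Against 1 with group alone it was 154 with no filter on genes, 16 with DESeq2, 0 with limma-voom (lowest adjusted p 0.099, 938 genes at an unadjusted p under 0.05), 75 with the replicate block, 52 with the barcode set as a block, and 0 with replicates 1 and 2 alone (410 at an unadjusted p under 0.05). It was 0 with the UMI reading of the cell filter (91), 0 with no cell filter (689), 3 with a gate of 3 UMIs, 472 with no C1q limit, and 0 without cells holding markers of other classes (159, and 2 calls when markers that monocytes express were left out of that list). Without dendritic-marker cells it was 9, and 144 with the replicate block as well. The settings without dendritic-marker cells and the shorter marker list were chosen after the data had been seen. Leaving out 1 library gave 0 to 5, and 5 came without vehicle replicate 1. RLE and TMMwsp scaling and a gate of 1 UMI gave 1 each, Slpi. Thinned cells gave 1 other gene, with Slpi too low to be tested, and Slpi was not among the 472. No leave-one-out fit was run with the block. The interaction count of 6 became 16 with a gate of 3 UMIs, 21 without dendritic-marker cells and 0 with the UMI reading (95 at an unadjusted p under 0.05), and on leaving out a library ran from 1 without ginkgetin replicate 3 to 25 without ginkgetin replicate 1, with 17 and 14 without vehicle replicates 2 and 3.

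The share of kept cells differed by −1.73 to −1.03 percentage points on leaving out 1 library and by −0.66 within replicate 3. The share of both monocyte gates differed by 13.3 to 23.5 points, by 28.3 within replicate 3, and by −0.46 with no C1q limit. The groups overlapped in the first share with a gate of 3 UMIs, with or without dendritic-marker cells (p = 0.30 each), and with cells thinned before the rule (p = 0.90), by exact permutation. They overlapped in the second with a gate of 1 UMI, without dendritic-marker cells, and with both a gate of 3 UMIs and no such cells (p = 0.20 each), with the UMI reading (p = 0.60) and with no C1q limit (p = 1.0), all by exact permutation. With the replicate block the differences stayed −1.30 and 17.8, with p = 0.25 in an exact sign-flip permutation test, the smallest value that 3 pairs allow.

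Of the 41 named genes, the 5 falls and 5 rises named first never changed sign, but they were picked for groups that do not overlap. Signs turned, always without a call, for the following log2 fold changes: with no C1q limit Eno3 0.99, Cebpb 0.22, Fcgr4 −0.81, Fabp4 0.11, Cd36 −0.81, Ly6c2 1.04, Ccr2 0.54 and Il1b 0.55, without other-class cells Cx3cr1 −0.0792, Fcgr4 −0.61, Ly6c2 0.52, H2-Aa 0.43, H2-Ab1 0.35, Cd74 0.97, Nfkbia 0.040 and Ccl5 −2.05. With the UMI reading they were Fcgr4 −0.31, Hes1 −0.26, Ccr2 0.060, H2-Aa 0.16, H2-Ab1 0.19, Cd74 0.71 and Il1b 0.0088. With thinned cells they were Eno3 0.15 and Il1b 0.0029, with no gene filter Hes1 −0.0868 and Lair1 −0.0949, with a gate of 1 UMI Ly6c2 1.22 and Lair1 −0.0030, with a gate of 3 UMIs Il1b 0.0933, with DESeq2 Tnf 0.0027, and with replicates 1 and 2 alone Il1b 0.19 and Nfkbia 0.041. Without dendritic-marker cells Ly6c2 was 0.14 (0.20 with the block). Leaving out ginkgetin replicate 2 gave Cx3cr1 −0.14, Hes1 −0.13, H2-Aa 0.038, Cd74 0.19 and Lair1 −0.028, leaving out vehicle replicate 3 gave Hes1 −0.17, Tnf 1.08, Il1b 0.17 and Ccl5 −0.10, and leaving out vehicle replicate 2, ginkgetin replicate 3 and ginkgetin replicate 1 gave Ly6c2 0.0027, Tnf 0.33 and Ccl5 −0.60. Over the fits that leave out 1 library these genes ranged from −0.14 to 0.69 (Cx3cr1), −0.17 to 0.38 (Hes1), −1.19 to 0.0027 (Ly6c2), −0.97 to 0.038 (H2-Aa), −0.72 to 0.19 (Cd74), −0.84 to 1.08 (Tnf), −0.60 to 0.17 (Il1b), −0.60 to 0.83 (Ccl5) and −0.028 to 0.21 (Lair1). The causes were not tested.

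The medians of the adhesion, transcription factor, lipid, lysosome and glycolysis lists kept their sign in all 24 alternatives (0.18 to 0.56, 0.035 to 0.64, −2.00 to −0.19, −0.85 to −0.29 and −1.25 to −0.51), while those of the interferon, MHC class I, inflammatory, MHC class II, immediate-early, chemokine, identity and Fc receptor lists turned in 14, 7, 3, 3, 3, 2, 2 and 1 of 24. Those of the cell cycle, vascular repair, survival and complement lists turned in 5 of 21, 4 of 23, 2 of 24 and 2 of 22. With 84458 summed UMIs, 1 UMI in ginkgetin replicate 2 is worth over 10 CPM, which limits low genes.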

Other observations

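Some genes of cholesterol synthesis are given as values, since they were picked after their values had been seen and low genes can pass the filter through the group where they are high. Idi1, isopentenyl-diphosphate isomerase, was 9.03, 4.77 and 7.92 CPM with vehicle and 30.4, 35.5 and 47.0 CPM with ginkgetin, and Hmgcs1, HMG-CoA synthase, was 7.74, 9.53 and 12.4 CPM against 30.4, 47.4 and 50.5 CPM. Srebf2, the transcription factor that drives the pathway, was 18.1, 28.6 and 44.1 CPM against 50.7, 106.6 and 109.8 CPM.

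Sqle, squalene epoxidase, was 2.58, 0 and 1.13 CPM against 20.3, 23.7 and 20.9 CPM in patrolling monocytes, and 3.54, 3.08 and 1.75 CPM against 12.2, 9.59 and 8.45 CPM in T cells. No test was made on these picked genes as a group.

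Ly6c2 had a UMI in 78 of the 405 patrolling monocytes. After thinning to 1000 UMIs the shares were 3.42%, 10.7% and 9.90% against 0%, 0% and 3.08%. T cells, many of which express Ly6c2, had one in 14.4% to 18.5% and 8.83% to 16.5% of cells after thinning.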
